A study of Mus musculus with 16 samples.

Results

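Expression of 10 genes of the tumour necrosis factor (TNF) system was described in sorted mouse cells: the ligands Tnf, Tnfsf8, Tnfsf9, Tnfsf10, Tnfsf12, Tnfsf13, Tnfsf13b and Tnfsf14, and the TNF receptors Tnfrsf1a and Tnfrsf1b. They were chosen by name from the 50600 genes of the deposited count table, and all 10 were among the 16345 genes with enough counts to be tested. The cells came from male mice aged 13 to 14 weeks and were sorted by the fluorescence of a reporter, with 4 libraries in each of 4 groups. The first group was CD11c-eYFP+ cells of the ischemic (ipsilateral) hemisphere of Tg(Itgax-Venus)1Mnz mice, in which the promoter of Itgax, the gene of CD11c, drives a yellow fluorescent protein. The second was CX3CR1+ microglia of the ischemic hemisphere of CX3CR1CreERT2:Rosa26-tdT mice, which carry a tdTomato reporter and an inducible Cre driven by the Cx3cr1 promoter, and the third was CX3CR1+ microglia of control brain of that line. The last was CD11c-eYFP+ cells of the spleen of Tg(Itgax-Venus)1Mnz mice, for which the labels give no disease state. The protocol describes enzymatic dissociation of brain tissue and a Percoll gradient, and says nothing of the spleen. The populations of the ischemic hemisphere are called brain CD11c cells and ischemic microglia below.

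TNF family ligands are made as membrane proteins that act as trimers, and several are released from the membrane by proteases. TNF receptor 1 (Tnfrsf1a) carries a death domain and can start both inflammatory gene expression and cell death, whereas TNF receptor 2 (Tnfrsf1b) lacks that domain and recruits TRAF adaptors directly. In the brain, microglia are a known source of TNF after injury, and both receptors are found on myeloid cells.

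Libraries held 31.57 to 48.25 (units of 1e6) counted reads. Levels are given as counts per 1e6 (CPM) after TMM scaling, an adjustment for library composition, and replicates 1 to 4 of a group are listed in that order. A gene is called higher or lower where the adjusted p of edgeR's quasi-likelihood test, taken over all genes tested, was below 0.05. Of the reporters' own genes, Itgax went with the labels. It averaged 756.1 CPM in brain CD11c cells, 77.2 CPM in ischemic microglia, 30.4 CPM in control microglia and 572.8 CPM in spleen CD11c cells. Cx3cr1 averaged 1312, 1912, 3128 and 29.1 CPM in the same groups. It set microglia far above spleen CD11c cells, but brain CD11c cells were only moderately below ischemic microglia (log2 fold change -0.54 ± 0.14, SE). Mouse line, with Cre driven by the Cx3cr1 promoter in microglia, differed there too. Among 8 microglia markers, including P2ry12 and Tmem119, the summed level was 7907 to 8270 CPM in brain CD11c cells, 19700 to 27050 CPM in ischemic microglia, 26830 to 32160 CPM in control microglia and 197 to 281 CPM in spleen CD11c cells. The 4 brain CD11c libraries differed among themselves. Summed border macrophage markers (5 genes, Mrc1 among them) were 695 and 567 CPM in replicates 1 and 2 and 177 and 196 CPM in replicates 3 and 4, while summed conventional dendritic cell markers (10 genes, Flt3 among them) were 11500, 16330, 23040 and 29240 CPM. The titles of replicates 1 and 2 also follow a different pattern from those of replicates 3 and 4, with no reason given. For the members and the receptors that bind them, values are therefore also given for replicates 1 and 2 alone and for replicates 3 and 4 alone where the call or the direction of a difference is not the same in both. The spleen group was not uniform either. There 8 neutrophil markers summed to 992 CPM in replicate 4, against 223 to 477 CPM in the other spleen libraries. Each microglia group also held a library unlike the rest. In ischemic replicate 2 the microglia markers summed to 19700 CPM, against 26140 to 27050 CPM in the other ischemic libraries. Itgax had 35.2 CPM in that library and 90.2 to 92.0 CPM in the others. In control replicate 1 the border macrophage markers summed to 503 CPM, against 986 CPM in replicate 4, with replicates 2 and 3 near the latter. In bulk libraries such as these, fewer cells of a type and less RNA per cell cannot be told apart.

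The sequence just before the transcription start is shown for 3 members: Tnf and Tnfsf14, which rose in ischemic microglia, and Tnfrsf1b, whose difference there was not called. Each is the 250 bases upstream of the start from RefSeq, build GRCm38.p6, on the strand of the gene (here always the minus strand), with matches to the motifs searched in capitals. The windows lie at chr17:35202008-35202257 (Tnf), chr17:57194182-57194431 (Tnfsf14) and chr4:145246871-145247120 (Tnfrsf1b).
Tnf: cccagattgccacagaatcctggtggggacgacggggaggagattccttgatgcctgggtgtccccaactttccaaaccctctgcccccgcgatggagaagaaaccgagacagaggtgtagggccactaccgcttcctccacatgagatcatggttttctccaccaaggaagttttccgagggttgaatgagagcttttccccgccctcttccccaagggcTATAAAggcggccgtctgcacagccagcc
Tnfsf14: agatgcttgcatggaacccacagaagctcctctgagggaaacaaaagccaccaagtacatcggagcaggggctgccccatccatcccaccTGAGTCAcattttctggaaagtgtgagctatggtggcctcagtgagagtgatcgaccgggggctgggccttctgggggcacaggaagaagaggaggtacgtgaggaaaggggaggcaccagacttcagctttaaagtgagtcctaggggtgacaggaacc
Tnfrsf1b: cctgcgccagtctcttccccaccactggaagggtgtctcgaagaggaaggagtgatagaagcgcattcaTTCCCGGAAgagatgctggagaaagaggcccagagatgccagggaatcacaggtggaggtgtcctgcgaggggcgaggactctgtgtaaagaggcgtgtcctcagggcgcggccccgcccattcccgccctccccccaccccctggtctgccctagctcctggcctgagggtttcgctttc
The capitals mark the TATA box of Tnf, TATAAA at bases -29 to -24 from the start, an AP-1 site of Tnfsf14, TGAGTCA at -160 to -154, and a GAS element of Tnfrsf1b, TTCCCGGAA at -181 to -173. Motifs were searched on both strands of the windows that RefSeq gave for 8 of the 10 members, Tnfsf9 and Tnfsf12 being without an entry. They were the TATA box (TATANA), the AP-1 site (TGANTCA), the GAS element (TTCNNNGAA) and the NF-kB consensus. These were present in 22.6%, 6.8%, 7.0% and 7.3% of the 32841 windows of all genes. Tnfsf13 held TGAGTCA at -133 to -127, within the gene as GENCODE M21 draws it, and Tnfsf13b held the same letters in the second of its windows, likewise past the start of the gene as drawn there. Tnfrsf1a held TTCCGTGAA at -244 to -236, in a window that lies wholly within its gene in that annotation. The windows of Tnfsf8 and Tnfsf10 held none of the motifs, and the letters of the NF-kB consensus were in no member's window. A match is a description of the letters and was not examined for binding.

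Tnf encodes the founding cytokine of the family (ENSMUSG00000024401, chr17:35199381-35202007, minus strand, GRCm38). Its level was 442, 261, 333 and 580 CPM in brain CD11c cells, 1367, 1737, 1202 and 1434 CPM in ischemic microglia, 943, 309, 343 and 485 CPM in control microglia, and 20.4, 18.7, 30.4 and 13.5 CPM in spleen CD11c cells. All 4 ischemic microglia libraries lay above every library of the other groups, all 4 spleen libraries lay below, and brain CD11c cells overlapped with control microglia, in which replicate 1 was the high one. Tnf was lower in brain CD11c cells than in ischemic microglia, with a log2 fold change of -1.83 ± 0.34 (SE, n = 4 and 4, adjusted p = 5.43e-04). In ischemic over control microglia it rose 2.76-fold, a log2 fold change of 1.47 ± 0.34 (adjusted p = 0.00347), and the value was 1.91 without control replicate 1. Over spleen CD11c cells it was 19.5-fold higher in brain CD11c cells (log2 4.28 ± 0.38, adjusted p = 9.64e-08). The group means spanned 69.2-fold, the widest span of the 10 members.

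Tnfsf9 encodes 4-1BB ligand, a costimulatory ligand on antigen-presenting cells (ENSMUSG00000035678, chr17:57105325-57107757, plus strand). It had 94.0, 58.1, 101 and 141 CPM in brain CD11c cells, 114, 165, 89.4 and 86.7 CPM in ischemic microglia, 39.0, 19.0, 26.9 and 27.8 CPM in control microglia, and 3.09, 3.78, 4.21 and 3.84 CPM in spleen CD11c cells. The brain CD11c cells and ischemic microglia overlapped, and each stood above control microglia and spleen in every library. Tnfsf9 rose 4.04-fold in ischemic over control microglia (log2 2.01 ± 0.27, adjusted p = 4.93e-05) and was 26.3-fold higher in brain than in spleen CD11c cells (log2 4.72 ± 0.31, adjusted p = 2.43e-09). Between brain CD11c cells and ischemic microglia the log2 fold change was -0.21 ± 0.26 (adjusted p = 0.568), so that no difference was detected. It was -0.58 with brain CD11c replicates 1 and 2 and 0.10 with replicates 3 and 4, neither being called. Of the exon bases of Tnfsf9, 14.9% lie opposite the antisense gene Gm11110, and the strand setting of the counts is not given in the sources used here.

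Tnfsf14 encodes LIGHT, which binds HVEM and the lymphotoxin beta receptor (ENSMUSG00000005824, chr17:57189492-57194177, minus strand). Its levels were 14.4, 12.7, 6.03 and 4.97 CPM in brain CD11c cells, 2.96, 5.90, 3.50 and 4.90 CPM in ischemic microglia, 0.350, 0.538, 0.370 and 0.722 CPM in control microglia, and 10.1, 9.14, 9.88 and 6.21 CPM in spleen CD11c cells. Control microglia were low in every library, with 14 to 25 counts each, and every ischemic microglia library was above them. The log2 fold change of 3.13 ± 0.38 in ischemic over control microglia (adjusted p = 1.90e-05), an 8.76-fold rise, was the largest of the 10 members in that comparison. Tnfsf14 was also called higher in brain CD11c cells than in ischemic microglia, with a log2 fold change of 1.15 ± 0.33 (adjusted p = 0.0120), although the libraries overlapped. That difference was carried by replicates 1 and 2: it was 1.65 with those 2 libraries and 0.37, no longer called, with replicates 3 and 4 alone. Replicates 1 and 2 had more border macrophage and fewer conventional dendritic cell markers than replicates 3 and 4. The border macrophage markers summed to 473 to 594 CPM in ischemic and 503 to 986 CPM in control microglia. The part of these markers in the Tnfsf14 difference was not tested. Brain and spleen CD11c cells overlapped, with a log2 fold change of 0.11 ± 0.33 (adjusted p = 0.777). Here the direction turned with the libraries used, the value being 0.63 with brain CD11c replicates 1 and 2 (adjusted p = 0.060) and -0.71 with replicates 3 and 4 (adjusted p = 0.0579).

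**Figure D1:**
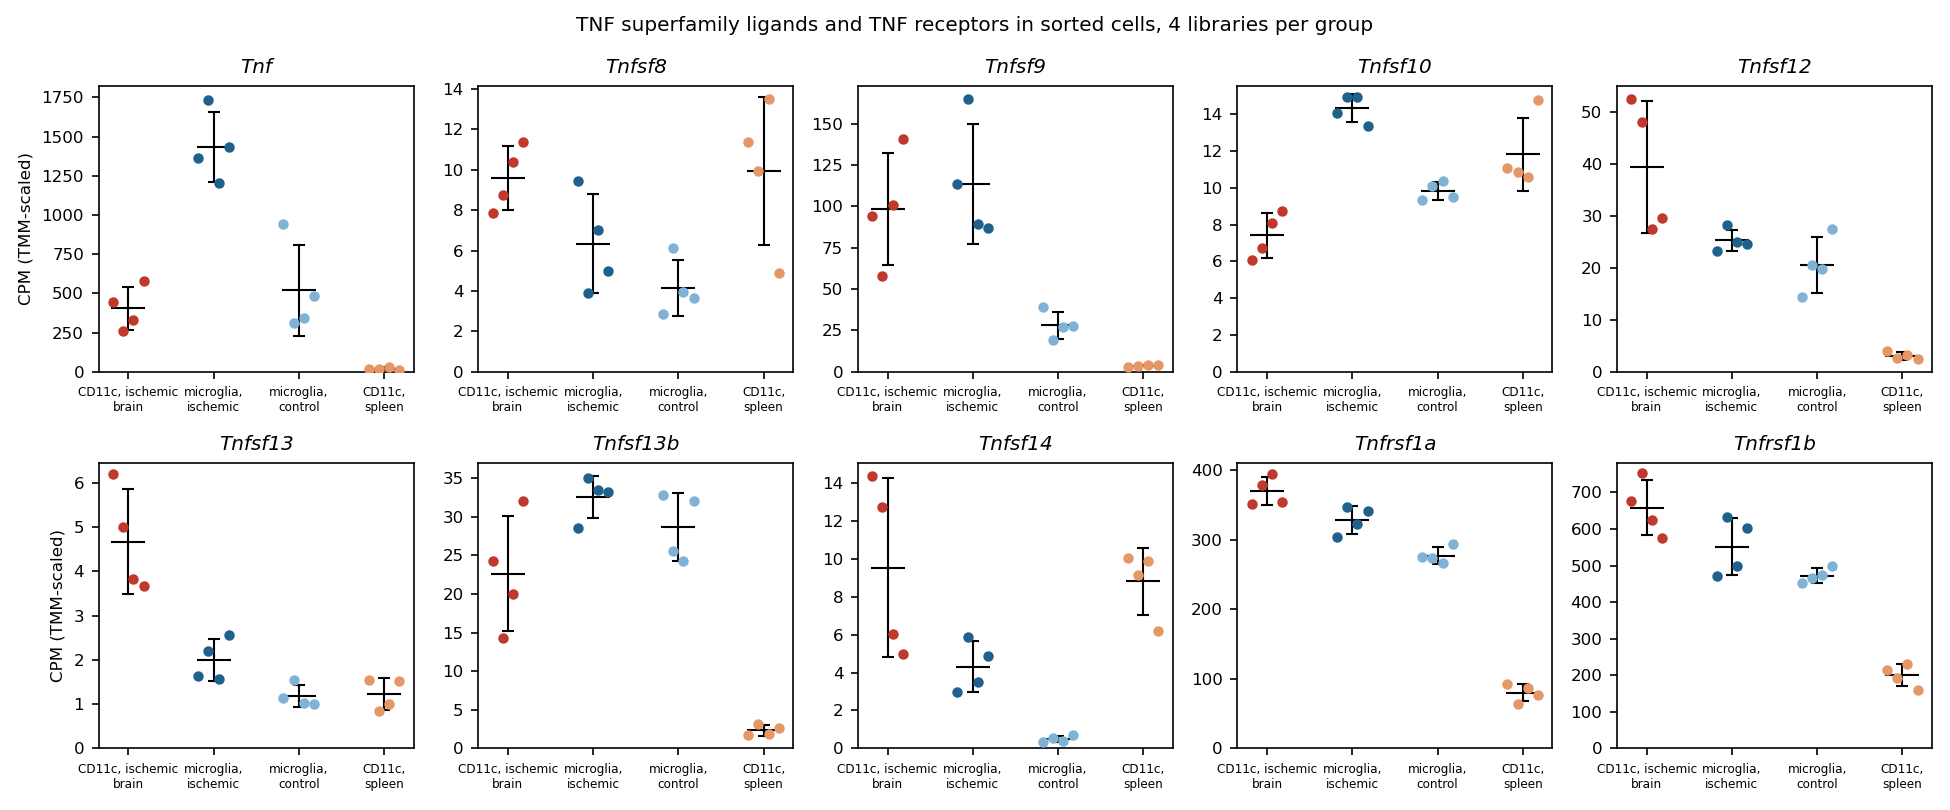
Level of each of the 10 members in CPM (TMM-scaled, linear axes from 0 with a scale of their own per gene); each point is 1 library, and bars give the mean ± SD of the 4 libraries of a group. Tnf is highest in ischemic microglia, where its 4 libraries sit between 1202 and 1737 CPM, and Tnfsf12, Tnfsf13 and Tnfsf14 split within brain CD11c cells.

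Tnfsf10 encodes TRAIL, a ligand that can induce apoptosis through a death receptor (ENSMUSG00000039304, chr3:27317028-27342427, plus strand). It had 6.08, 6.75, 8.11 and 8.73 CPM in brain CD11c cells, 14.1, 14.9, 15.0 and 13.4 CPM in ischemic microglia, 9.35, 10.1, 10.4 and 9.50 CPM in control microglia, and 11.1, 10.9, 10.6 and 14.8 CPM in spleen CD11c cells. Brain CD11c cells were the lowest group, with no library reaching any library of another group. Its log2 fold change was -0.95 ± 0.14 against ischemic microglia (adjusted p = 5.18e-05) and -0.67 ± 0.14 against spleen CD11c cells (adjusted p = 5.17e-04), which made it the only member called lower in brain than in spleen CD11c cells. In ischemic over control microglia it rose by 0.54 ± 0.14 on the log2 scale (adjusted p = 0.00619).

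Tnfsf12 and Tnfsf13 are neighbours on the minus strand of chromosome 11 and encode TWEAK, which binds Fn14, and APRIL, a survival factor for antibody-secreting cells. Tnfsf12 (ENSMUSG00000097328, chr11:69686250-69695849) shares 48.3% of its exon bases, and Tnfsf13 (ENSMUSG00000089669, chr11:69682846-69685784) shares 60.0%, with the readthrough gene Tnfsfm13. Another 13.5% of Tnfsf13 lies opposite the antisense gene Tnfsf13os. The values of both genes are therefore uncertain where reads could have been split between them, and each result was repeated with the counts of Tnfsf12, Tnfsf13 and Tnfsfm13 summed. The summed row had a log2 fold change of 0.72 ± 0.21 for brain CD11c cells over ischemic microglia (adjusted p = 0.0140), 0.33 ± 0.21 for ischemic over control microglia (adjusted p = 0.242) and 3.20 ± 0.23 for brain over spleen CD11c cells (adjusted p = 6.15e-09).

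Tnfsf12 had 52.6, 48.2, 27.6 and 29.6 CPM in brain CD11c cells, 23.4, 28.2, 25.0 and 24.6 CPM in ischemic microglia, 14.3, 20.7, 19.7 and 27.5 CPM in control microglia, and 3.98, 2.57, 3.30 and 2.45 CPM in spleen CD11c cells. All brain libraries were above all spleen libraries, a 12.8-fold difference between the CD11c groups (log2 3.68 ± 0.25, adjusted p = 2.39e-09). Against ischemic microglia, brain CD11c cells were called higher by 0.64 ± 0.22 on the log2 scale (adjusted p = 0.0302), with overlapping libraries. The call was lost without brain CD11c replicate 1 (0.49) or 2 (0.55), which lowered the value. It was also lost without ischemic microglia replicate 1 (0.62), 3 (0.65) or 4 (0.65), with the value nearly as in the fit of all libraries, and the difference was 0.99 with brain CD11c replicates 1 and 2 alone and 0.19 with replicates 3 and 4 alone. The log2 fold change of Tnfsf12 in ischemic over control microglia was 0.30 ± 0.22 (adjusted p = 0.314).

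Tnfsf13 was among the least expressed members, with 6.20, 5.01, 3.82 and 3.67 CPM in brain CD11c cells, 1.63, 2.21, 1.57 and 2.57 CPM in ischemic microglia, 1.15, 1.54, 1.03 and 1.01 CPM in control microglia, and 1.54, 0.850, 1.01 and 1.53 CPM in spleen CD11c cells. Brain CD11c cells were above every library of the other groups. The log2 fold change was 1.23 ± 0.27 over ischemic microglia (adjusted p = 0.00197) and 1.92 ± 0.28 over spleen CD11c cells (adjusted p = 1.75e-05), and both stayed called in either pair of brain CD11c libraries. The summed row was called in both comparisons too, at a lower value than Tnfsf13 in the first and a higher one in the second. That row held mostly Tnfsf12, with a mean of 39.46 CPM in brain CD11c cells, against 4.675 CPM of Tnfsf13 and 2.619 CPM of Tnfsfm13. It therefore cannot check the values of Tnfsf13. In ischemic over control microglia the log2 fold change of Tnfsf13 was 0.75 ± 0.28 (adjusted p = 0.0451). That call was lost without ischemic microglia replicate 1, 2 or 4 or control microglia replicate 1, 3 or 4 (0.59 to 0.89 over all libraries left out). The summed row, mostly Tnfsf12, was not called there.

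Tnfsf13b encodes BAFF, a B cell survival factor (ENSMUSG00000031497, chr8:10006467-10039072, plus strand). Its levels were 24.2, 14.3, 20.0 and 32.0 CPM in brain CD11c cells, 28.6, 35.02, 33.5 and 33.2 CPM in ischemic microglia, 32.8, 25.5, 24.3 and 32.1 CPM in control microglia, and 1.67, 3.14, 1.90 and 2.57 CPM in spleen CD11c cells. The 3 brain groups overlapped and the spleen libraries were below them all. Tnfsf13b was 9.73-fold higher in brain than in spleen CD11c cells (log2 3.28 ± 0.24, adjusted p = 5.34e-09). The log2 fold change was -0.53 ± 0.21 for brain CD11c cells over ischemic microglia (adjusted p = 0.0618) and 0.18 ± 0.21 for ischemic over control microglia (adjusted p = 0.530). The first of these passed the threshold without brain CD11c replicate 4 (-0.74) and with brain CD11c replicates 1 and 2 alone (-0.76), but not with replicates 3 and 4 alone (-0.31).

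Tnfsf8 encodes CD30 ligand (ENSMUSG00000028362, chr4:63831308-63861347, minus strand). It had 7.87, 8.77, 10.4 and 11.4 CPM in brain CD11c cells, 9.47, 3.88, 7.01 and 5.001 CPM in ischemic microglia, 2.85, 6.12, 3.97 and 3.64 CPM in control microglia, and 11.4, 9.96, 13.5 and 4.89 CPM in spleen CD11c cells. The compared groups overlapped in all 3 comparisons and none was called. The log2 fold changes were 0.60 ± 0.32 for brain CD11c cells over ischemic microglia (adjusted p = 0.147), 0.61 ± 0.32 for ischemic over control microglia (adjusted p = 0.147) and -0.05 ± 0.31 for brain over spleen CD11c cells (adjusted p = 0.899). Without ischemic microglia replicate 1 the first of these was 0.88 and passed. The last was -0.25 with brain CD11c replicates 1 and 2 and 0.10 with replicates 3 and 4.

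Tnfrsf1a, TNF receptor 1 (ENSMUSG00000030341, chr6:125349362-125362484, plus strand), had 351, 378, 394 and 355 CPM in brain CD11c cells, 304, 347, 322 and 341 CPM in ischemic microglia, 275, 274, 267 and 294 CPM in control microglia, and 92.4, 63.7, 87.2 and 77.2 CPM in spleen CD11c cells. The groups were ordered without overlap, but the steps between the brain groups were small. The log2 fold change was 0.17 ± 0.10 for brain CD11c cells over ischemic microglia (adjusted p = 0.214) and 0.24 ± 0.10 for ischemic over control microglia (adjusted p = 0.0795), neither being called. Tnfrsf1a was 4.61-fold higher in brain than in spleen CD11c cells (log2 2.21 ± 0.11, adjusted p = 5.56e-11).

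Tnfrsf1b, TNF receptor 2 (ENSMUSG00000028599, chr4:145213463-145246870, minus strand), had 677, 752, 625 and 576 CPM in brain CD11c cells, 471, 634, 500 and 603 CPM in ischemic microglia, 451, 466, 475 and 498 CPM in control microglia, and 213, 194, 231 and 161 CPM in spleen CD11c cells. Spleen was again the low group, and neighbouring brain groups overlapped. The log2 fold changes were 0.25 ± 0.13 for brain CD11c cells over ischemic microglia (adjusted p = 0.131) and 0.22 ± 0.13 for ischemic over control microglia (adjusted p = 0.186). The first was called with brain CD11c replicates 1 and 2 alone (0.37) and not with replicates 3 and 4 alone (0.14). It was 3.30-fold higher in brain than in spleen CD11c cells (log2 1.72 ± 0.13, adjusted p = 9.96e-09). Per kb of exon, the ratio of the level of Tnfrsf1b to that of Tnfrsf1a was 1.21 ± 0.14 in brain CD11c cells, 1.14 ± 0.098 in ischemic microglia, 1.16 ± 0.039 in control microglia and 1.71 ± 0.29 in the spleen group (SD over 4 libraries).

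**Figure D2:**
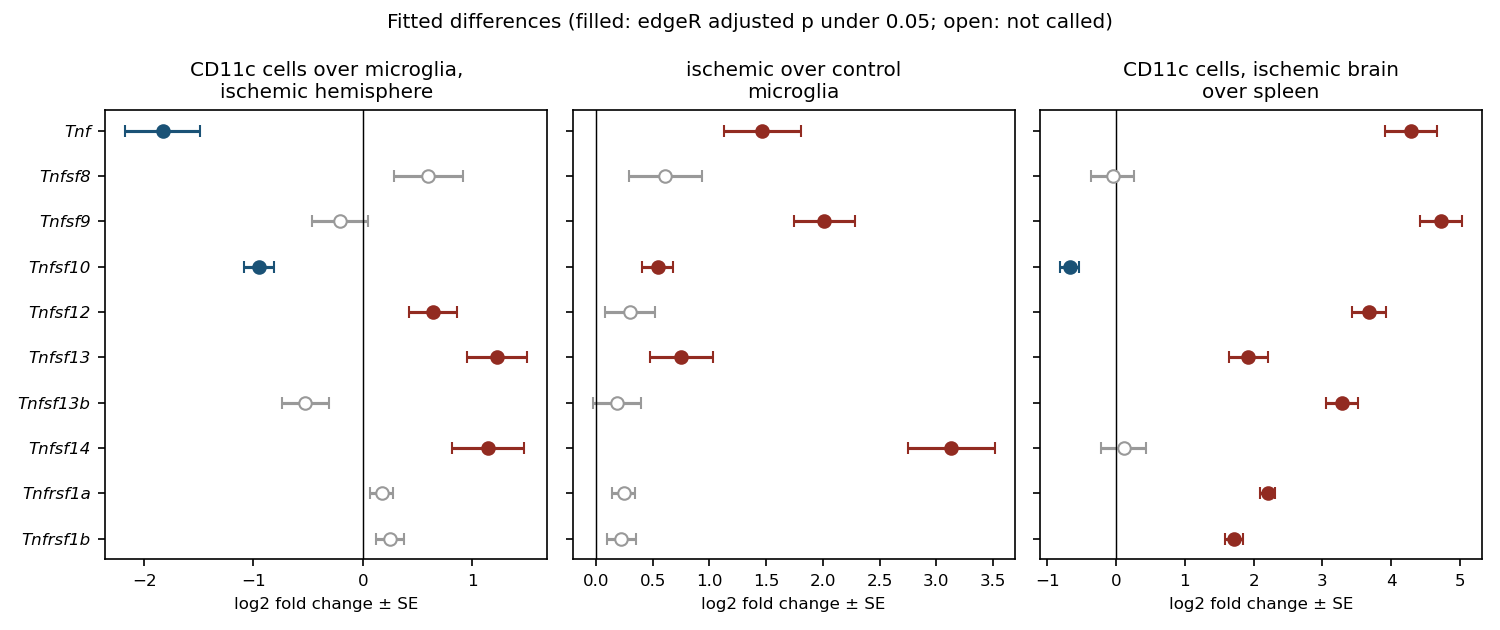
Fitted log2 fold change ± SE of the 10 members in 3 comparisons (4 libraries per group); filled points were called by edgeR (red higher, blue lower) and open points were not. The largest rise in ischemic over control microglia is that of Tnfsf14 (3.13), and only Tnfsf10 is called lower in brain than in spleen CD11c cells.

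Set side by side, 3 members were called higher and 2 lower in brain CD11c cells than in ischemic microglia, where 19.7% of all genes tested were called higher and 19.1% lower. The mouse line differed with the cell type in this comparison, so line and cell type cannot be told apart. In ischemic over control microglia 5 members were called higher and 0 lower, against 17.7% and 18.0% of all genes. All 10 fitted changes were above 0 there, so that none was lower at an unadjusted p under 0.05 either, with edgeR or DESeq2. Beside it, conventional dendritic cell markers summed to 817 to 1151 CPM in ischemic and 1340 to 2325 CPM in control microglia, with 2 of 10 called higher and 3 lower, and T cell markers to 5.66 to 13.0 and 1.91 to 4.55 CPM, with 1 of 8 called higher. Of the microglia markers 4 of 8 were called lower, and of 7 natural killer cell markers 3 were called higher, at sums of 1.20 to 5.90 CPM in ischemic and 0.905 to 1.76 CPM in control microglia. In brain over spleen CD11c cells 7 members were called higher and 1 lower, against 31.2% and 33.0% of all genes. Organ, the disease state, which is unlabelled for spleen, and any difference in cell preparation cannot be told apart there. The members' median log2 fold change was 0.21, 0.58 and 2.06 in the 3 comparisons, beside 0.00, -0.05 and -0.04 over all genes. Beside the comparison of brain with spleen CD11c cells stand the 8 microglia markers, all called higher in brain (7907 to 8270 CPM, against 197 to 281 CPM in spleen). Lower in brain were 8 T cell markers, which summed to 8.52 to 21.2 CPM in brain and 183 to 322 CPM in spleen. So were 8 neutrophil markers, with 1.40 to 8.26 CPM in brain and 223 to 992 CPM in spleen. Beside the comparison of brain CD11c cells with ischemic microglia stand 6 monocyte markers, with 1009 to 1366 and 20.1 to 25.8 CPM. The conventional dendritic cell markers summed to 11500 to 29240 and 817 to 1151 CPM there, with 9 of 10 called higher and 1 lower. Of the microglia markers given above, all 8 were called lower. The part of the markers in the members' differences was not tested in any of the 3 comparisons. The first comparison shares the ischemic microglia libraries with the second and the brain CD11c libraries with the third.

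Compared per kb of exon, Tnf was the most abundant member in the 3 brain groups, with 246.6 ± 84.8 CPM per kb in brain CD11c cells, 875.7 ± 136 in ischemic microglia and 317.1 ± 178 in control microglia, and ranked below both receptors in the spleen, with 12.7 ± 4.33 (SD over 4 libraries throughout). Tnfrsf1b and Tnfrsf1a followed it in brain and led in spleen, where they had 52.3 ± 7.91 and 30.9 ± 4.89 CPM per kb. Tnfsf9 and Tnfsf12 came next in each brain group. The other ligands stayed below 6 CPM per kb in every group. With the length of the longest transcript in place of all exons, Tnfrsf1a came before Tnfrsf1b in both microglia groups. Tnfsf13b then had 6.82 CPM per kb in ischemic and 6.01 CPM per kb in control microglia.

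**Figure D3:**
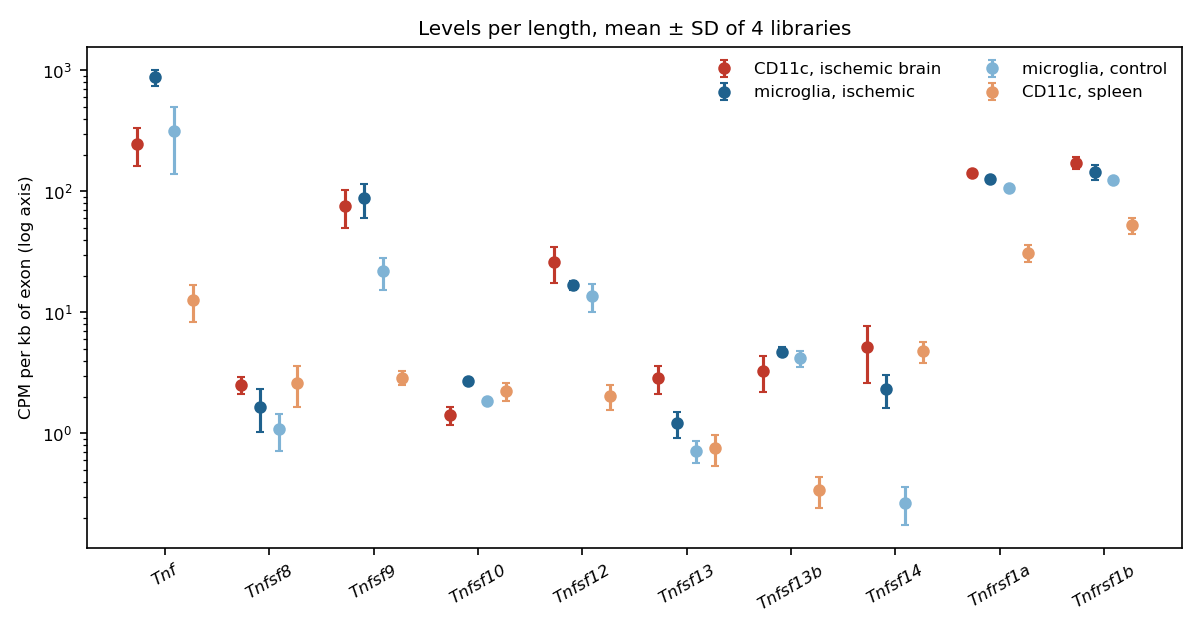
Mean level ± SD of the 10 members in CPM per kb of exon (log axis, n = 4 libraries per group). Tnf, Tnfrsf1a, Tnfrsf1b and Tnfsf9 are the most abundant members in brain cells, and the spleen group (orange) is the lowest for Tnf, Tnfsf9, Tnfsf12, Tnfsf13b, Tnfrsf1a and Tnfrsf1b.

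The receptors that bind these ligands were followed next; 9 of 10 were tested, and Tnfrsf11b, whose product osteoprotegerin is a soluble decoy receptor of TRAIL, was not. Tnfrsf9 encodes 4-1BB, the receptor of Tnfsf9. It had 5.13, 3.89, 4.95 and 9.40 CPM in brain CD11c cells, 0.125, 0.664, 0.183 and 0.265 CPM in ischemic microglia, and 4.11, 4.27, 6.60 and 3.08 CPM in spleen CD11c cells. In control microglia it had 5 counts in replicate 3 and none in the others. It was called higher in brain CD11c cells than in ischemic microglia (log2 4.23 ± 0.57, adjusted p = 1.81e-05), while its ligand did not differ detectably. Its rise in ischemic over control microglia (log2 3.23 ± 0.82, adjusted p = 0.00605) rests on those few counts and was 6.57 without control replicate 3.

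Tnfrsf12a encodes Fn14, the receptor of TWEAK. It had 47.2, 38.9, 46.6 and 67.4 CPM in brain CD11c cells, 34.4, 42.8, 35.1 and 54.6 CPM in ischemic microglia, 32.6, 13.5, 14.5 and 20.9 CPM in control microglia, and 0.871, 1.57, 1.73 and 1.27 CPM in spleen CD11c cells. It rose in ischemic over control microglia (log2 1.03 ± 0.27, adjusted p = 0.00680) and, like its ligand, was far higher in brain than in spleen CD11c cells (log2 5.19 ± 0.33, adjusted p = 1.41e-09). Tnfrsf10b, the mouse TRAIL receptor with a death domain, was low throughout, averaging 0.875 CPM in brain CD11c cells, 1.52 CPM in ischemic microglia, 0.403 CPM in control microglia and 0.969 CPM in spleen CD11c cells. It rose with its ligand in ischemic over control microglia (log2 1.91 ± 0.30, adjusted p = 1.62e-04). Its lower level in brain CD11c cells than in ischemic microglia (log2 -0.79 ± 0.29, adjusted p = 0.0372) was lost when any of 6 libraries was left out, namely brain CD11c replicates 1, 2 and 4 and ischemic microglia replicates 1, 3 and 4, while the value stayed between -0.87 and -0.65.

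The receptors of APRIL and BAFF ran against their ligands between brain and spleen. Tnfrsf13c encodes the BAFF receptor and had 0.486, 0.336, 1.16 and 2.12 CPM in brain CD11c cells and 84.5, 130.0, 116.9 and 136.9 CPM in spleen CD11c cells (log2 -6.84 ± 0.43, adjusted p = 2.10e-09). Tnfrsf13b, which encodes TACI, averaged 57.5 CPM in brain CD11c cells and 176.3 CPM in spleen CD11c cells (log2 -1.62 ± 0.10, adjusted p = 1.03e-09), and Tnfrsf17, which encodes BCMA, averaged 1.07 and 14.3 CPM (log2 -3.74 ± 0.35, adjusted p = 1.31e-07). Beside these, the summed level of 6 B cell markers was 12.1 to 19.1 CPM in brain CD11c cells and 2442 to 3215 CPM in spleen CD11c cells, with all 6 called lower in brain, and that of 4 plasma cell markers was 207 to 284 and 4560 to 9082 CPM. Their part in the differences was not tested. Within microglia, where B cell markers summed to 17.1 to 18.5 CPM in ischemic and 15.6 to 21.7 CPM in control libraries, Tnfrsf17 fell to 6.84, 3.85, 7.92 and 5.45 CPM in ischemic microglia, against 15.5, 19.0, 16.5 and 15.9 CPM in control microglia (log2 -1.48 ± 0.31, adjusted p = 0.00164). Tnfrsf13b fell there too, by 0.47 ± 0.10 on the log2 scale (adjusted p = 0.00168). The plasma cell markers summed to 181 to 208 CPM in ischemic and 240.3 to 286 CPM in control microglia, and their part in this was not tested either.

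Among the receptors of LIGHT, Ltbr, the lymphotoxin beta receptor, averaged 100.6 CPM in brain CD11c cells, 109.4 CPM in ischemic microglia, 99.2 CPM in control microglia and 32.6 CPM in spleen CD11c cells, and was called only between brain and spleen (log2 1.63 ± 0.13, adjusted p = 1.69e-08). Tnfrsf14, which encodes HVEM, went the other way, with 14.2 CPM in brain CD11c cells and 32.7 CPM in spleen CD11c cells (log2 -1.21 ± 0.17, adjusted p = 9.85e-06). It averaged 19.9 CPM in ischemic and 21.7 CPM in control microglia. Tnfrsf8, which encodes CD30, the receptor of Tnfsf8, averaged 0.613 CPM in brain CD11c cells and 7.88 CPM in spleen CD11c cells (log2 -3.68 ± 0.55, adjusted p = 2.10e-05). In ischemic over control microglia Tnfrsf8 was called higher by 1.57 ± 0.55 on the log2 scale (adjusted p = 0.0356), a call that was lost in 7 of the 8 fits with 1 library left out, the exception being the fit without ischemic replicate 1, while the value stayed at 1.48 to 1.70. Against ischemic microglia, Tnfrsf8 in brain CD11c cells had a log2 fold change of -0.72 ± 0.53 (adjusted p = 0.310), which was 0.05 with replicates 1 and 2 and -2.46, then called, with replicates 3 and 4. In all, 2 of the 9 tested receptors were called higher and 4 lower in brain CD11c cells than in ischemic microglia, 4 higher and 2 lower in ischemic over control microglia, and 2 higher and 5 lower in brain over spleen CD11c cells (median log2 -0.33, 0.19 and -1.21). Of all genes tested, 19.7% and 19.1%, 17.7% and 18.0%, and 31.2% and 33.0% were called higher and lower in the same comparisons. Of the 4 lower in the first comparison, Tnfrsf13b (-0.33) was no longer called without brain CD11c replicate 1 or 2 or ischemic microglia replicate 1 or 3, and Tnfrsf14 (-0.49) without brain CD11c replicate 1 or 4 or ischemic microglia replicate 1, 2 or 3. With brain CD11c replicates 1 and 2 alone they were -0.46 and -0.70, both called, and with replicates 3 and 4 alone -0.19 and -0.29, neither called.

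**Figure D4:**
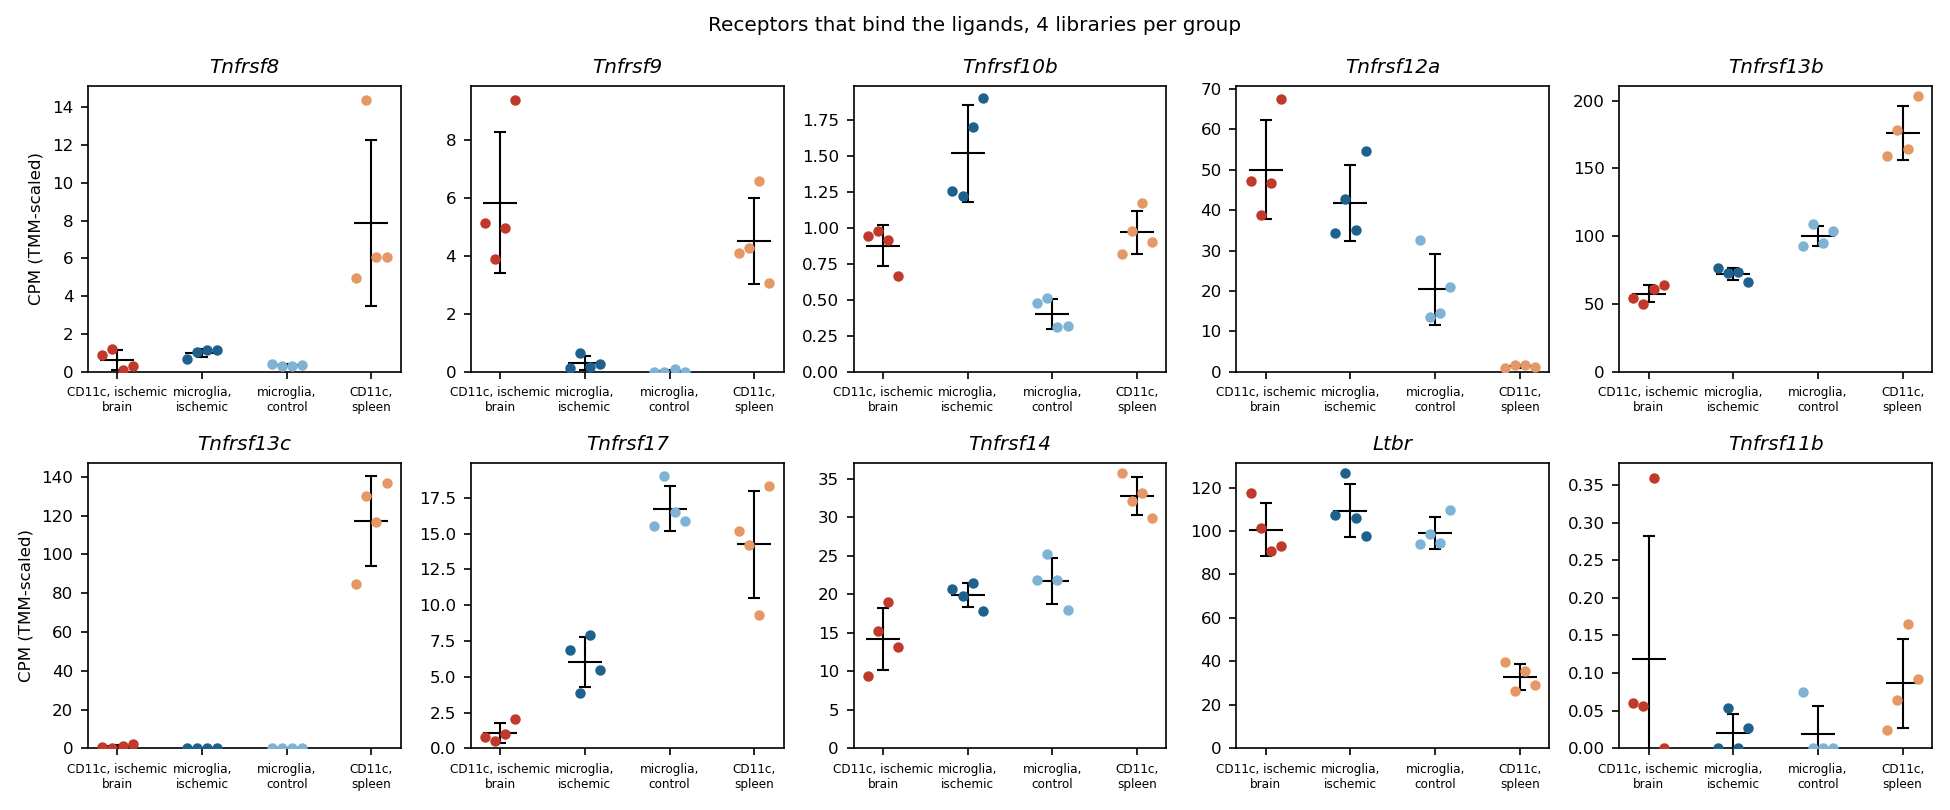
Level in CPM (linear axes from 0, 1 scale per gene) of the 10 receptors that bind the ligands; each point is 1 library, bars give the mean ± SD of 4 libraries. Tnfrsf12a is lowest in spleen CD11c cells, whereas Tnfrsf13b, Tnfrsf13c, Tnfrsf14 and Tnfrsf8 are highest there; Tnfrsf11b was not tested.

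The remaining family genes moved in both directions. Of 9 further ligands tested, 4 were called higher and 1 lower in brain CD11c cells than in ischemic microglia (median log2 2.72), 1 and 1 in ischemic over control microglia (0.96), and 1 and 5 in brain over spleen CD11c cells (-1.88). The shares of all genes called were 19.7% and 19.1%, 17.7% and 18.0%, and 31.2% and 33.0%, which also stand beside the receptor counts below. The 1 lower ligand in the first comparison was 0 without ischemic microglia replicate 1 and 2 without brain CD11c replicate 3. Tnfsf4, which encodes OX40 ligand, averaged 13.2 CPM in brain CD11c cells, 0.032 CPM in ischemic microglia and 1.83 CPM in spleen CD11c cells. Ltb, which encodes lymphotoxin beta, averaged 13.8 CPM in brain CD11c cells, 2.05 CPM in ischemic microglia and 201.9 CPM in spleen CD11c cells, beside the B cell markers given above. Of 24 further receptor genes tested, the 9 above included, 8 were called higher and 5 lower in brain CD11c cells than in ischemic microglia (median log2 -0.01), 6 and 4 in ischemic over control microglia (0.15), and 5 and 15 in brain over spleen CD11c cells (-1.18). Left out in turn, single libraries moved some of these counts: the 5 lower were 3 without brain CD11c replicate 1 or 2 and 2 without ischemic microglia replicate 1 or 3, and the 4 lower in ischemic microglia were 2 without ischemic replicate 2 or 4 or control replicate 4. In brain CD11c cells over ischemic microglia 2 were called lower with library totals, and 5 higher and 2 lower with only those groups fitted. Without a filter on low counts 2 were called lower in ischemic over control microglia. Cd40, a costimulatory receptor, averaged 33.9 CPM in brain CD11c cells, 10.1 CPM in ischemic microglia and 3.63 CPM in control microglia and was called in both steps. Its level in spleen CD11c cells was higher still, at 61.4 CPM, and Cd40 was called lower in brain than in spleen (log2 -0.86 ± 0.25, adjusted p = 0.00705). Fas, a death receptor, rose in ischemic over control microglia (log2 2.15 ± 0.34, adjusted p = 1.57e-04). Tnfrsf21, death receptor 6, was lower in brain CD11c cells than in ischemic microglia, with means of 121.9 and 259.4 CPM.

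Of 33 genes that carry or limit the receptors' signal, 11 were called higher and 6 lower in brain CD11c cells than in ischemic microglia (median log2 -0.01), 11 and 3 in ischemic over control microglia (0.01), and 11 and 11 in brain over spleen CD11c cells (-0.12). Beside these stand 19.7% and 19.1%, 17.7% and 18.0%, and 31.2% and 33.0% of all genes. The counts in brain over spleen CD11c cells were near those shares. The 11 lower in brain than in spleen CD11c cells were 7 without spleen replicate 2 or 3. With library totals and no composition scaling, 2 were called lower in brain CD11c cells than in ischemic microglia, 7 in ischemic over control microglia and 19 in brain over spleen CD11c cells. With only the groups compared in the fit, 3 were called lower in the first of these and 7 in the last. Traf1, an adaptor recruited by TNF receptor 2, averaged 162.6 CPM in brain CD11c cells and 4.50 CPM in ischemic microglia (log2 5.18 ± 0.27, adjusted p = 8.07e-10). Spleen CD11c cells had more, at 288.9 CPM, and Traf1 was called lower in brain than in spleen (log2 -0.83 ± 0.22, adjusted p = 0.00404). Tnfaip3 encodes A20, an inhibitor of TNF signalling, and was highest where Tnf was: it averaged 656.3 CPM in brain CD11c cells, 1716 CPM in ischemic microglia, 1142 CPM in control microglia and 102.4 CPM in spleen CD11c cells. The protease that releases TNF, Adam17, averaged 355.1 CPM in brain CD11c cells and 145.0 CPM in spleen CD11c cells (log2 1.29 ± 0.13, adjusted p = 1.99e-07). Rhbdf2, whose product iRhom2 is needed to bring that protease to the surface of myeloid cells, rose to 205.3 CPM in ischemic microglia, against 48.9 CPM in control microglia (log2 2.07 ± 0.19, adjusted p = 1.45e-06).

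A further list held 18 genes named as targets of TNF. Whether TNF induced them in these cells was not tested. In brain CD11c cells 2 of them were called higher and 8 lower than in ischemic microglia (median log2 -0.69). The counts were 10 and 1 in ischemic over control microglia (0.83), and 14 and 2 in brain over spleen CD11c cells (2.05). Over all genes the shares were 19.7% and 19.1%, 17.7% and 18.0%, and 31.2% and 33.0%. The 2 higher in the first comparison were 1 without brain CD11c replicate 2 or ischemic microglia replicate 1, 3 or 4, and the 1 lower in the second was 2 without ischemic microglia replicate 4. In ischemic over control microglia the called genes included Ptgs2, the inducible cyclooxygenase (log2 2.35 ± 0.29, adjusted p = 2.35e-05), and Csf1, a macrophage growth factor (log2 2.11 ± 0.21, adjusted p = 2.63e-06), while Junb, a subunit of AP-1, fell by 1.09 ± 0.23 (adjusted p = 0.00184). Csf1, Icam1 and Vcam1 were among those lower in brain CD11c cells than in ischemic microglia, with log2 fold changes of -1.72, -1.44 and -1.96. Vcam1 had 49.8 CPM in brain CD11c cells, against 1388 CPM in spleen CD11c cells, and so went against most of the list there.

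**Figure D5:**
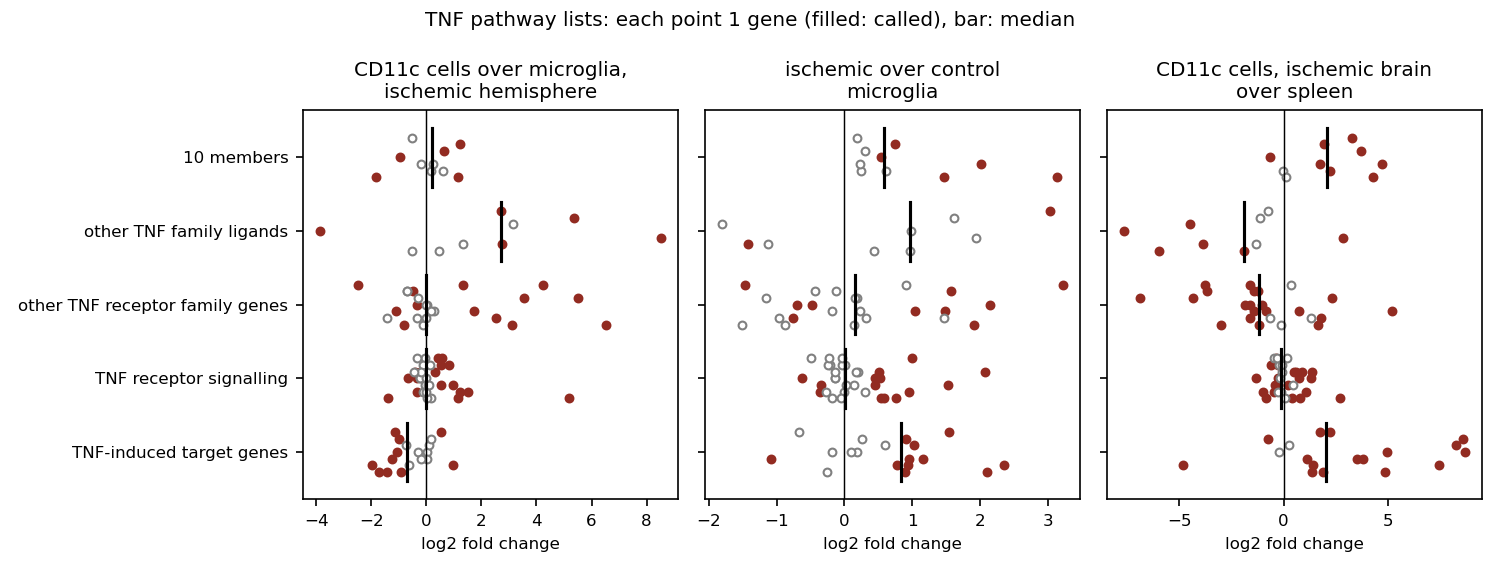
Log2 fold change of every tested gene of 5 lists in 3 comparisons; filled points were called by edgeR, open points were not, and the vertical bar is the list's median. The list named TNF-induced target genes has medians of -0.69, 0.83 and 2.05, and the members 0.21, 0.58 and 2.06.

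Genes whose level followed that of a member most closely over the 16 libraries were listed by Pearson's r of log2 CPM, which describes mainly the differences between the 4 groups that all genes share. For Tnf these were Nfkbiz (0.992), Cd83 (0.991) and Lacc1 (0.990), and for Tnfsf9 they were Tmem88 (0.979), Klf10 (0.978) and Ctla2b (0.976). Ptafr, the receptor of platelet-activating factor, was among the nearest genes of both Tnfrsf1a (0.987) and Tnfrsf1b (0.992). Tnfsf12 was followed most closely by Arl11 (0.984), Tnfsf13 by Mmp19 (0.961), Tnfsf13b by Igf2bp2 (0.987) and Tnfsf14 by Cs (0.972). The values were lower for Tnfsf8, with Tbc1d8 (0.924), and for Tnfsf10, with Pla2g6 (0.880).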

How the data were processed

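Polyadenylated RNA of 16 libraries of sorted cells was sequenced with a stranded kit. The values are read counts per gene as deposited by the authors; per the submitters' processing notes, FastQC 0.11.5, STAR 2.5.3a and the GRCm38 genome were used. Not given in the sources used here are the counting program, its strand setting, the annotation release and the time after ischemia. Whether libraries of a group come from separate animals is not labelled either, and a p-value then reflects only how far these libraries spread, which may be technical. Of 50600 gene IDs, 50376 were named from GENCODE M21 or a name table.

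Counts were fitted in edgeR 4.0.16 (R 4.3.3; limma 3.58.1 and DESeq2 1.42.0 for alternatives) with TMM scaling, filterByExpr and a robust quasi-likelihood F test, two-sided, on all 16 libraries with a mean per group. Adjustment was by the Benjamini-Hochberg method, threshold 0.05. The script was tested on simulated data with 200 changed genes. For brain CD11c cells over ischemic microglia, 86% of genes set to a fold of 2 were called, and 68% of those set to 0.5. At folds of 4 and 0.25 the shares were 100% and 94%. A true 2-fold difference can therefore be missed. The simulated spread was a fixed setting, so these shares need not hold for the real libraries. Log2 CPM used a prior count of 2.

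Members and lists were chosen with earlier results of these data known. All members and the receptors that bind them are named. Of each further list, up to 3 called genes per direction were eligible, given non-overlapping groups and a mean of 5 CPM or more in the higher one; of the genes nearest to a member, the first 3 were eligible. Alternatives changed the scaling, the filter, the test, the libraries and the gene length.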

Additional observations from a re-analysis of the deposited data

Results flagged for a closer look

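Of 80 gene and group pairs (the members and the receptors that bind them, 4 groups of 4 libraries), 6 held a library that stood far from the other 3. Chance alone flags about 1 in 20 groups. Tnfsf10 was at 14.8 CPM in spleen CD11c replicate 4, the high value of a group whose other libraries had 10.6 to 11.1 CPM. Tnfrsf8 was at 14.4 CPM in spleen CD11c replicate 2. The other 4 were at low levels: Tnfrsf9 at 0.103 CPM in control microglia replicate 3, Tnfrsf13c at 0.1999 CPM in control microglia replicate 1, and Tnfrsf11b at 0.360 CPM in brain CD11c replicate 3 and at 0.0750 CPM in control microglia replicate 1.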

How the results depend on the processing

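The alternatives gave 466 values of a member's log2 fold change, many from the same fit. Of these, 438 stayed on the same side of the threshold, 18 lost and 10 gained a call, and 0 reversed a called value. The values include the summed row of Tnfsf12, Tnfsf13 and Tnfsfm13, which cannot check Tnfsf13. The number of members called in brain CD11c cells over ischemic microglia was 5, and 3 with brain CD11c replicates 3 and 4 only; with 1 library left out it was 4 to 6. It was 4 to 6 in ischemic over control microglia and 8 under every setting in brain over spleen CD11c cells. Beside the losses given with the results, Tnfsf12 was not called over ischemic microglia without a filter (0.58), and Tnfsf13 was not called in ischemic over control microglia with library totals (0.60), without a filter (0.80) or with limma-voom (0.74). Gained calls were Tnfsf13b lower in brain CD11c cells than in ischemic microglia without a filter (-0.59), with DESeq2 (-0.54), with limma-voom (-0.59) or with brain CD11c replicates 1 and 2 only (-0.76), Tnfrsf1b higher there with library totals (0.36) or those 2 replicates (0.37), and Tnfrsf1a higher in ischemic over control microglia with DESeq2 (0.26) or only those groups fitted (0.28). With library totals and no composition scaling, the share of calls that were higher was 62.4% in place of 50.7% in brain CD11c cells over ischemic microglia, 33.5% in place of 49.5% in ischemic over control microglia, and 34.9% in place of 48.6% in brain over spleen CD11c cells, and the median over all genes was 0.10, -0.20 and -0.30 (log2). In the last comparison 7 of the 33 signalling genes were called lower without a filter, in place of 11. Counts of all genes called stayed within 1.5 times under every alternative. Tnfsf13 had 35 to 204 counts per library and Tnfsf14 had 14 to 25 in control microglia, which limits their precision. No paired analysis was possible because the numbers in the titles are shared by at most 1 library of the groups compared.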
